A study of Bos taurus with 13 samples.

Results

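Enzymes that make acetyl-CoA, build fatty acids and glycerolipids, activate fatty acids or oxidise them were followed on a bovine mammary cDNA microarray. The members were taken by gene symbol from the platform annotation: ACLY, ACSS2, AACS, SCD and GPAM on the side of synthesis, ACSL1 and ACSL5 for activation, and ACADS, ACAT1 and ACOX2 on the side of oxidation. All 10 genes were printed, as 13 clones of 3 spots each, or 39 of 3888 spots and 13 of the 1179 features (spots of 1 cDNA accession, averaged) that were kept. ACSS2, SCD and ACSL5 had 2 clones each, and all 13 clones passed the filter on missing values. On 2 arrays RNA of lactating mammary gland was paired with RNA of a prepubertal Holstein heifer's gland, of 136 kg on array 1 and 227 kg on array 2. The title of array 2 was followed here, but a keyword in its description names a post-pubertal gland, so the stage its values are set against is in doubt. 8 arrays each paired 1 bovine tissue (adipose, adrenal, ileum, liver, lymph, spleen, thymus and prepubertal mammary gland, from a Holstein heifer of 136 kg) with reference RNA from the BovMac cell line. A further array paired prepubertal (136 kg) with postpubertal (310 kg) gland, and 2 arrays held the reference on both channels. The labels give no genotype, treatment, age or number of animals behind an RNA, nor whether both lactating hybridisations drew on 1 RNA. The p-values therefore measure the spread between these arrays, pooled over all features, and not the spread between animals.

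Ruminant mammary cells build milk fat largely from acetate made in the rumen, and less from glucose than rodent cells do. ACSS2 joins acetate to coenzyme A in the cytosol, ACLY releases acetyl-CoA from citrate, and AACS activates acetoacetate, a ketone body, for lipid synthesis. SCD places a double bond in saturated fatty acids, and GPAM adds the first acyl chain to glycerol-3-phosphate, which starts triacylglycerol. ACSL1 and ACSL5 couple long-chain fatty acids to coenzyme A for either fate. ACADS starts the mitochondrial oxidation of short chains, ACOX2 oxidises branched chains and bile acid intermediates in peroxisomes, and ACAT1 is the mitochondrial thiolase that splits acetoacetyl-CoA.

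Values are log ratios per spot as the authors deposited them, of unstated base, with exact 0 taken as missing and each array centred on its median. A change of 1 unit is 2-fold if the base is 2 and 2.72-fold if it is the natural log. On the lactating arrays the positive side is the side of the caseins (CSN1S1 at 2.09 and CSN2 at 0.77 over both arrays, positive on each), so a positive value likely means more of that RNA in lactating gland. The other caseins were less clear: CSN1S2 read -0.19 on array 1 and 0.39 on array 2, CSN3 read 0.98 and -0.16, and neither passed in limma (adjusted p = 0.769 and 0.223). On the tissue arrays the direction was not settled: with the channels in the other order every sign there would turn. The median absolute deviation of the features was 0.0863 to 0.165 on the tissue arrays other than ileum and 0.233 in ileum, against 0.134 and 0.194 on the arrays of the reference against itself. Ratios on the tissue arrays other than ileum were thus spread no wider than on the second of those arrays. Spots of a clone followed each other little on the second array of the reference against itself (mean Spearman rho 0.113 over 1076 clones) and on the prepubertal against postpubertal array (0.06 over 1205 clones), against 0.534 to 0.846 on the tissue and lactating arrays. Bulk RNA cannot tell more cells of a type from more RNA per cell.

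In lactating against prepubertal gland, 1 clone of the acetate enzyme ACSS2, the clone of GPAM and 1 clone of ACSL5 passed the test, all on the casein side, and no clone of an oxidation enzyme did. These were 3 of 13 clones, 2 of 7 for synthesis, 1 of 3 for activation and 0 of 3 for oxidation. The same limma test called 11.7% of all 1167 features tested, and 8.31% on the casein side, so 3 of 13 is a larger share but rests on 3 clones. The members were chosen with earlier results of these data known, so their share is not independent of them. The 3 oxidation clones had unadjusted p-values of 0.14 to 0.24 by limma, and in contrast with the arrays of the reference against itself 1 of them (ACAT1) had an unadjusted p under 0.05, as did 180 of 1117 features. Over both arrays the median of the synthesis clones was 0.41, that of the oxidation clones -0.20 and that of the activation clones 0.03, beside -0.0016 over all features tested.

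ACSS2 clone 1 lay far out on the casein side in every spot. Its spots read 1.64, 3.22 and 2.53 on array 1 and 2.30, 2.36 and 2.41 on array 2. No spot of this clone was above 0 on the arrays of the reference against itself, where its means were -0.64 and -0.32. Spots of a clone are repeats within an array, so this sets 2 arrays against 2. The share of all features whose spots lie apart in this way was not counted. The mean over the lactating arrays was 2.41 ± 0.08 (SD, n = 2), with an adjusted p of 6.68e-06 by limma. It ranked 10 of 1167 from the highest. In contrast with the reference against itself it lay at 2.89 with a standard error of 0.20 (adjusted p = 0.00628, limma), and it was the only one of the 13 clones to pass there, where 1.79% of 1117 features passed.

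The other clone of ACSS2 did not share this. ACSS2 clone 2 had means of 0.05 on array 1 and 0.32 on array 2, or 0.18 ± 0.19 (SD, n = 2), with an adjusted p of 0.516 by limma. On the arrays of the reference against itself it was at -0.13 and 0.25, a range that overlapped its lactating values. Clone 1 minus clone 2 was 2.41 on array 1 and 2.04 on array 2. Among 71 genes with 2 or more features tested, this was the second largest gap between features of a gene, where the median of the largest gap per gene was 0.35 and 2 genes reached 2 units. The gene's mean of 1.30 therefore stands for neither clone. The clones' sequences were not used here, so which part of the transcript each holds, and whether either takes up RNA of another gene, was not tested.

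**Figure D1:**
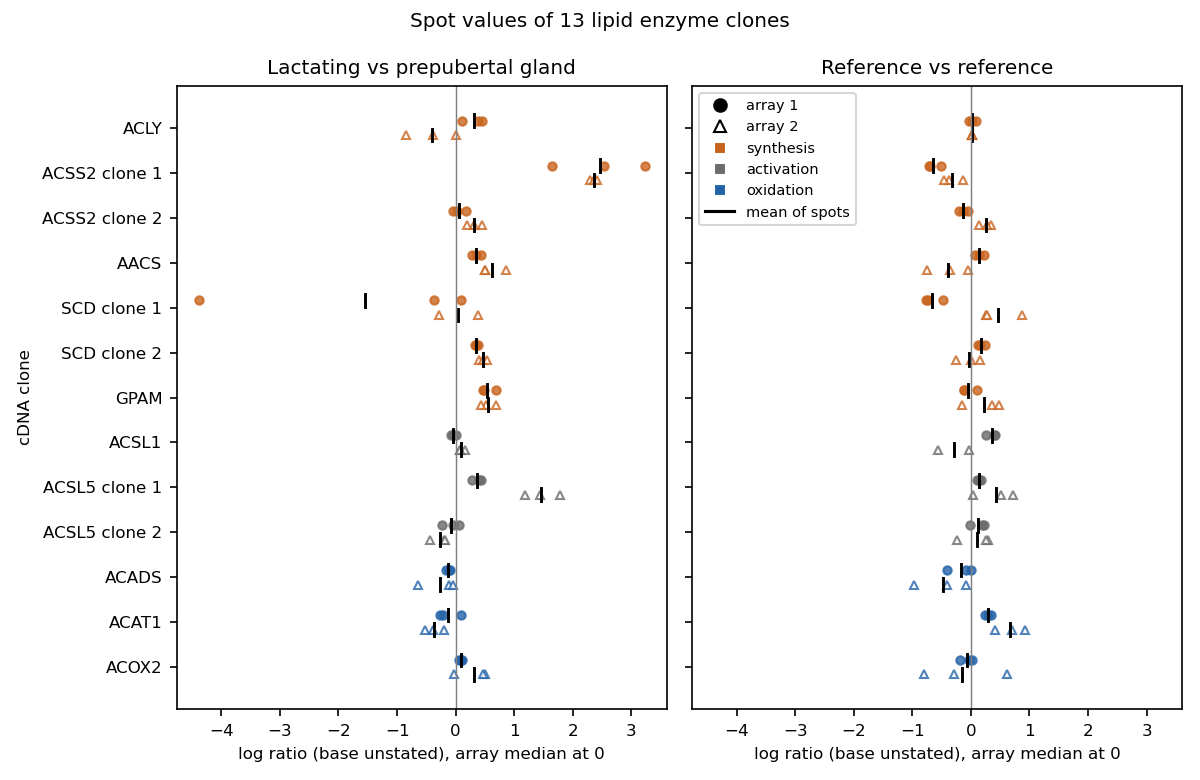
Spot values (log ratio of unstated base, array median at 0) of the 13 clones on the 2 lactating against prepubertal arrays (left) and the 2 arrays of the reference against itself (right). Circles are array 1, triangles array 2 and black bars the mean of a clone's spots. ACSS2 clone 1 stands at 2.46 and 2.36 on the left, and 1 spot of SCD clone 1 lies alone at -4.38.

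The other enzymes of acetyl-CoA supply moved less. AACS read 0.35 on array 1 and 0.62 on array 2, against 0.14 and -0.39 on the arrays of the reference against itself. Both lactating values lay on the casein side and above both reference values, but only the value of array 2 lay farther from 0 than both of those. Its mean of 0.49 ± 0.19 (SD, n = 2) had an adjusted p of 0.0839 by limma over features, and 0.0472 when genes were tested in place of features. ACLY, which supplies acetyl-CoA from citrate, had 0.32 on array 1 and -0.41 on array 2, so its 2 arrays opposed each other (mean -0.05 ± 0.52, adjusted p = 0.912, limma).

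GPAM, at the entry to glycerolipid synthesis, lay at nearly the same value on both arrays. Its spots ran from 0.46 to 0.68 on array 1 and from 0.44 to 0.68 on array 2, with means of 0.54 and 0.55. On the reference against itself the means were -0.05 and 0.23, below both lactating values. The adjusted p was 0.0469 by limma, and 0.324 in contrast with the reference against itself, where the difference was 0.45 with a standard error of 0.19. The SD between its 2 arrays was 0.0048, and the limma test widened it with the spread over all features.

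SCD gave one picture in clone 2 and another in clone 1. SCD clone 2 read 0.35 on array 1 and 0.47 on array 2, against 0.17 and -0.03 on the arrays of the reference against itself. All its lactating spots were on the casein side, and the mean of 0.41 ± 0.08 (SD, n = 2) did not pass (adjusted p = 0.12, limma). SCD clone 1 read -1.55 on array 1 and 0.05 on array 2, and its mean of -0.75 ± 1.13 did not pass either (adjusted p = 0.147, limma). 1 spot made that value: on array 1 its spots were 0.08, -4.38 and -0.37. Without the spot at -4.38 the clone's mean over both arrays was -0.05 (adjusted p = 0.884, limma), an alternative chosen after seeing the data.

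The activation enzymes split by clone. ACSL5 clone 1 had spots of 0.28 to 0.44 on array 1 and of 1.18 to 1.78 on array 2, the array with the 227 kg heifer, against means of 0.14 and 0.42 on the reference against itself. The lactating spots did not overlap between arrays, and only those of array 2 lay above the reference means throughout. Its SD between arrays was wide, and limma narrowed it with the spread over all features, to a standard error of 0.23 for the mean. Its mean of 0.92 ± 0.77 (SD, n = 2) passed in limma (adjusted p = 0.0318), but not (adjusted p = 0.446) in contrast with the reference against itself. Without array 2 it read 0.37 (adjusted p = 0.741), and without array 1 1.46 (adjusted p = 0.0477), in limma fits that take the spread from the arrays of the reference against itself and assume that the lone array varied like them. Whether the weight of the heifer bears on it was not tested, since each weight had 1 array.

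ACSL5 clone 2 lay on the opposite side of both arrays, at -0.08 and -0.27 (mean -0.17 ± 0.14, adjusted p = 0.537, limma). The gap of clone 1 over clone 2 was 0.45 on array 1 and 1.73 on array 2. As a gene, ACSL5 averaged 0.37 and did not pass (adjusted p = 0.136, limma on genes, which called 14.8% of 697 genes). ACSL1, the form best known from adipose tissue and liver, stayed near 0 at -0.04 and 0.10 (adjusted p = 0.939, limma), with 0.35 and -0.29 on the reference against itself. In the bovine annotation ACSL5 and GPAM are near neighbours on 1 chromosome, with 1 protein-coding gene (TECTB) annotated between their starts.

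Of the oxidation enzymes, ACADS and ACAT1 lay slightly on the opposite side and ACOX2 slightly on the casein side. ACADS read -0.13 on array 1 and -0.26 on array 2, against -0.16 and -0.48 on the reference against itself, so its lactating values lay within or beside the range of 1 RNA against itself. ACAT1 read -0.13 and -0.37, against 0.29 and 0.67 on the reference against itself. Both lactating values of ACAT1 thus lay below both reference values, but the share of all features whose 2 pairs lie apart was not counted. The difference of the ACAT1 means was -0.73 with a standard error of 0.22. It had an unadjusted p of 0.0195 and did not pass (adjusted p = 0.218, limma). ACOX2 read 0.09 and 0.31, against -0.06 and -0.15 on the reference against itself (lactating mean 0.20 ± 0.16, adjusted p = 0.48, limma).

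Counted by sign, both lactating values were positive for 5 of 7 synthesis clones and 1 of 3 oxidation clones, beside 36.7% of all features. These 5 clones include both of ACSS2, so they are not 5 separate genes. Both were negative for 0 synthesis and 2 oxidation clones (ACADS and ACAT1), and for 386 of the 1167 features. ACSS2 clone 1, SCD clone 2 and GPAM lay on 1 side of both lactating arrays and farther from 0 than on either array of the reference against itself. These were 3 of 13 clones, while 25% of 1117 features met that description, which was chosen after seeing the data. The share of the members was thus near that of all features.

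**Figure D2:**
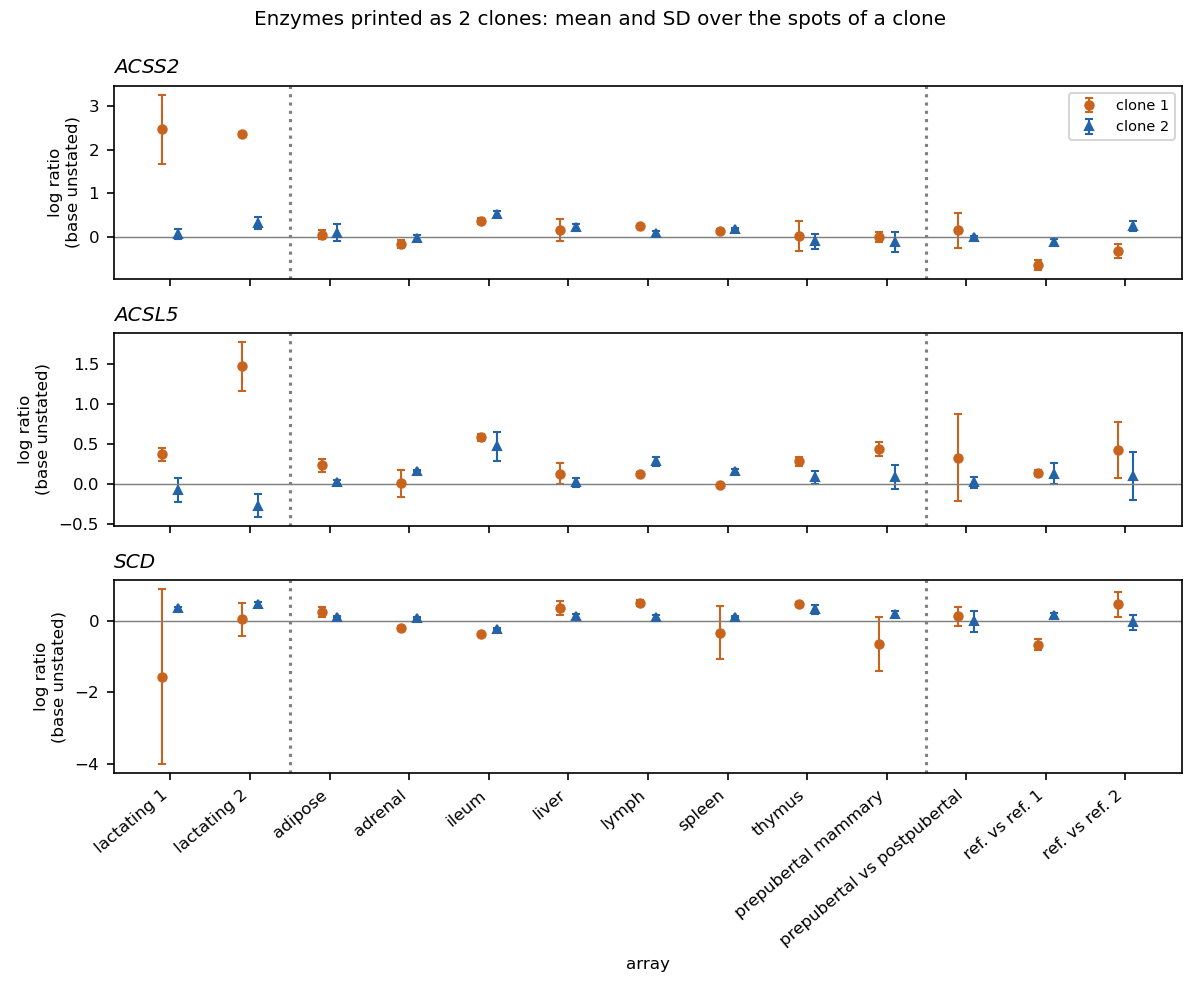
Mean and SD over spots (log ratio of unstated base) of the 2 clones of ACSS2, ACSL5 and SCD on each of the 13 arrays, with dotted lines between lactating, tissue and other arrays. The clones of ACSS2 separate by 2.41 and 2.04 on the lactating arrays and by at most 0.16 on the tissue arrays. On the reference against itself they also part, with clone 1 at -0.64 and -0.32 and clone 2 at -0.13 and 0.25.

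The median of the synthesis clones lay above that of the oxidation clones on both lactating arrays. On array 1 the medians were 0.35 for synthesis and -0.13 for oxidation, and on array 2 they were 0.47 and -0.26. The differences of 0.48 and 0.74, or 0.61 ± 0.18 (SD, n = 2), exceeded those of 0.02 and 0.17 on the arrays of the reference against itself. On each lactating array 5 of 7 synthesis clones lay above all 3 oxidation clones, and 1 lay below all 3 (SCD clone 1 on array 1, ACLY on array 2). On array 2 the 5 clones above included both of ACSS2. Some tissue arrays, with signs as deposited, showed this order too: the number of synthesis clones above all oxidation clones was 6 on the lymph tissue array, 5 each on those of adipose tissue and liver and 4 on that of spleen, against 0 on both arrays of the reference against itself. No p was made for this difference, since the members were chosen with earlier results of these data known.

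Other genes of the pathways were few on the platform. Of 167 genes in lists of lipid supply, synthesis, uptake, oxidation, ketone bodies, sterols and lipolysis, 13 were tested, as genes, and 2 passed, both on the casein side, beside the 14.8% of all genes. PDHA1, a subunit of the mitochondrial pyruvate dehydrogenase that makes acetyl-CoA from pyruvate, read 0.82 on array 1 and 0.99 on array 2, against -0.30 and 0.17 on the reference against itself. Its lactating mean was 0.91 ± 0.12 (adjusted p = 0.000578, limma). The lactating values lay apart from the others, but the share of all genes whose 2 pairs lie apart was not counted. CD36, a fatty acid transporter, read 0.85 and 1.17, against 0.20 and 0.28 (adjusted p = 0.000286, limma).

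Among 6 further oxidation genes 0 passed in limma. The highest was CPT2, which returns fatty acyl groups from carnitine to coenzyme A inside mitochondria, at 0.38 ± 0.09 (adjusted p = 0.107, limma). The lowest was CRAT, the carnitine acetyltransferase, at -0.39 ± 0.06 (adjusted p = 0.0991, limma). The chain elongase ELOVL6 had 0.58 on array 1 and -0.77 on array 2, and so opposed itself as ACLY did. BDH2 (0.18 ± 0.32), LIPA (0.11 ± 0.07), IDI1 (0.18 ± 0.15) and SC5D (-0.08 ± 0.09) did not pass, and FABP5 had a value on array 1 alone (0.60). The 13 genes had a median of 0.02, beside -0.00027 over all 697 genes.

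Markers of the cells in the gland were read beside these values. Of the milk secretion markers 7 of 8 were measured and 2 passed, with summed log ratios of 4.50 on array 1 and 4.71 on array 2. Of the epithelial markers 3 of 10 were measured and 0 passed (sums -0.68 and 0.29), and of the stroma and endothelium markers 3 of 9 with 0 passed (sums -0.11 and -0.17). Leukocyte markers had 4 of 9 measured and 1 passed, RAC2 on the opposite side (-0.53 ± 0.39), with sums of -0.93 and -0.35. All 8 adipocyte markers were without a spot, so the share of adipose cells in the glands could not be read. The part of these cells in the enzyme values was not tested.

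On the tissue arrays the enzymes stayed close to 0, as most features did. 0 of 104 clone values lay 1 unit or more from 0. Of all feature values there 1.39% (131) reached that size, 98 of them in ileum. In ileum 3 of 13 clones lay at least 0.5 units from 0, as 23.3% of features did, and on the other 7 arrays 2 of 91 clone values did, against 3.11% of features. 20 of the 104 values lay farther from 0 than both values of the same clone on the reference against itself, against 27.6% of all feature values. In ileum alone 7 of 13 clones did, beside 45.2% of features. Member counts were thus near or below the background, but for this ileum count, which lay somewhat above it. Over the 8 tissues the members' median range was 0.53, beside 0.55 for all features, and without ileum it was 0.36 beside 0.44. Markers could hardly check the tissue labels: adipocyte, adrenal and intestinal markers had no spot, and the 1 hepatocyte marker measured, FGG, read 0.21 in liver and 0.44 in prepubertal mammary gland. Epithelial and leukocyte markers were mixed. In ileum CD74 read 2.41, EPCAM 1.94, RAC2 0.85, ELF5 0.72, PTPRC 0.50, LCP1 0.10 and KRT7 0.06. EPCAM also read 1.51 on the second array of the reference against itself. In lymph tissue, spleen and thymus RAC2 and LCP1 lay below 0, CD74 above 0 and PTPRC on both sides. What these values say of the direction was not tested.

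**Figure D3:**
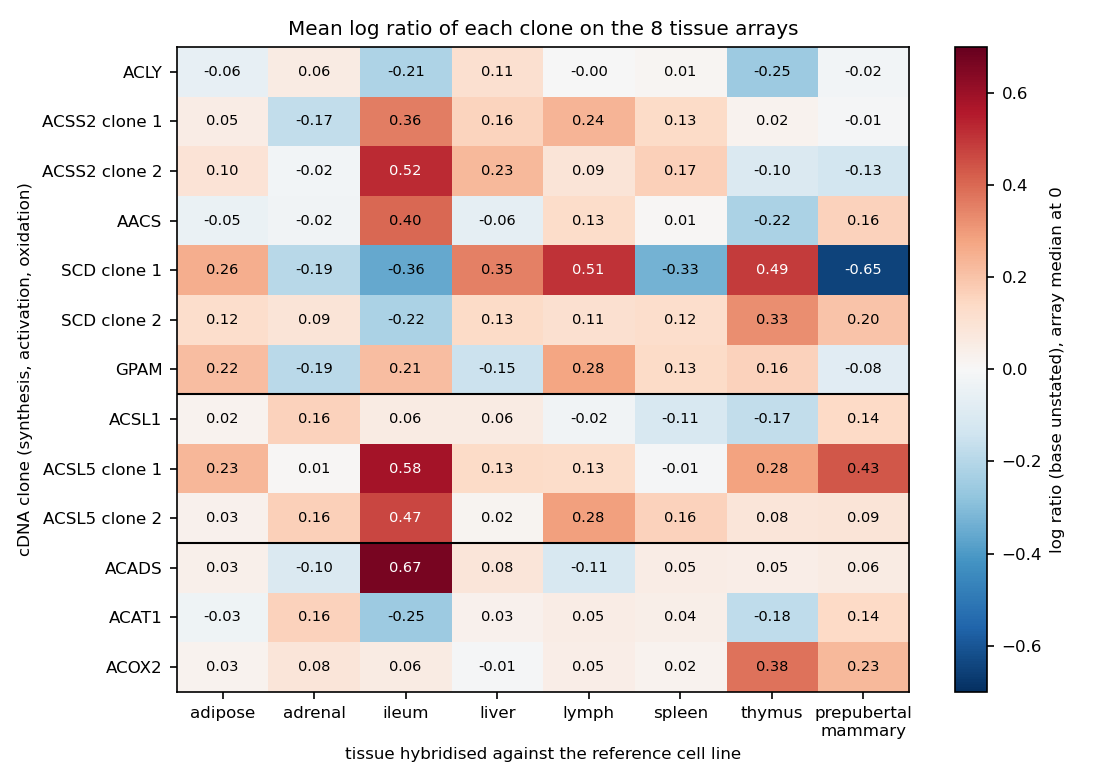
Mean log ratio (unstated base, array median at 0) of each clone, in rows, on the 8 arrays of a tissue against the reference cell line, in columns. The strongest colours are ACADS (0.67) and ACSL5 clone 1 (0.58) in ileum and SCD clone 1 in prepubertal mammary gland (-0.65).

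Ileum held the most positive value of 6 clones and the most negative of 2. Over all features with a value in all 8 tissues it was highest for 21.8% and lowest for 28.2%, so an extreme ileum value is common on this array. Against these shares, 6 of 13 clones is more and 2 of 13 is less. The 6 clones include both of ACSS2 and both of ACSL5, so they are not 6 separate genes. ACADS stood out most: it read 0.67 ± 0.10 (SD over 3 spots) in ileum, 0.58 above the next tissue, liver at 0.08. Its other tissues ran from -0.11 in lymph tissue to 0.06 in prepubertal mammary gland, thymus and spleen lying at 0.05 and adipose tissue at 0.03, with adrenal tissue at -0.10. Those 7 tissues spanned 0.20, beside SDs over spots of up to 0.16.

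Both clones of ACSS2 and both of ACSL5 were also highest in ileum. ACSS2 clone 1 read 0.36 in ileum, 0.24 in lymph tissue, 0.16 in liver, 0.13 in spleen, 0.05 in adipose tissue, 0.02 in thymus, -0.01 in prepubertal mammary gland and -0.17 in adrenal tissue. ACSS2 clone 2 read 0.52 in ileum, 0.23 in liver, 0.17 in spleen, 0.10 in adipose tissue, 0.09 in lymph tissue, -0.02 in adrenal tissue, -0.10 in thymus and -0.13 in prepubertal mammary gland. These clones, apart by over 2 units on the lactating arrays, differed by -0.16 to 0.14 on the tissue arrays. On both arrays of the reference against itself clone 1 (-0.64 and -0.32) lay below clone 2 (-0.13 and 0.25). Over the 8 tissues, which share the reference RNA, their profiles correlated with r = 0.80 (Pearson) and rho = 0.79 (Spearman), and with r = 0.62 without ileum.

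ACSL5 clone 1 read 0.58 in ileum and 0.43 in prepubertal mammary gland, with 0.28 in thymus, 0.23 in adipose tissue, 0.13 in liver and lymph tissue, 0.01 in adrenal tissue and -0.01 in spleen. Ileum and mammary gland were the 2 tissues where it lay farther from 0 than on either array of the reference against itself. ACSL5 clone 2 read 0.47 in ileum, 0.28 in lymph tissue, 0.16 in spleen and adrenal tissue, 0.09 in prepubertal mammary gland, 0.08 in thymus, 0.03 in adipose tissue and 0.02 in liver. Over the 8 tissues these clones had r = 0.42 (Pearson) and rho = 0 (Spearman), and r = -0.41 without ileum. Both were highest in ileum and their order differed elsewhere.

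GPAM read 0.28 in lymph tissue, 0.22 in adipose tissue, 0.21 in ileum, 0.16 in thymus, 0.13 in spleen, -0.08 in prepubertal mammary gland, -0.15 in liver and -0.19 in adrenal tissue. Of these only the value in lymph tissue lay farther from 0 than the 0.23 of this clone on the reference against itself. AACS read 0.40 in ileum, 0.16 in prepubertal mammary gland, 0.13 in lymph tissue and 0.01 in spleen, and lay below 0 in adrenal tissue (-0.02), adipose tissue (-0.05), liver (-0.06) and thymus (-0.22). ACLY ran from 0.11 in liver to -0.25 in thymus. Most neighbours in these 3 orders differed by less than the larger SD over spots of the pair.

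SCD lay below 0 in ileum by both clones, as ACLY did (-0.21), at -0.36 for clone 1 and -0.22 for clone 2. SCD clone 2 was highest in thymus at 0.33, with the other 6 tissues between 0.09 and 0.20. SCD clone 1 spread widest of all members, from 0.51 in lymph tissue and 0.49 in thymus to -0.65 in prepubertal mammary gland. Its SD over spots was 0.76 in the mammary gland and 0.74 in spleen, and on the reference against itself it read -0.66 and 0.47, so its tissue values lay within its range for 1 RNA against itself but for those of lymph tissue and thymus.

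Of the remaining enzymes, ACAT1 was lowest in ileum at -0.25 and highest in adrenal tissue at 0.16, next to prepubertal mammary gland at 0.14. ACOX2 was highest in thymus at 0.38 ± 0.15 (SD over 3 spots) and in prepubertal mammary gland at 0.23, with 0.08 or less elsewhere. In liver, where peroxisomal ACOX2 serves bile acid synthesis, it read -0.01. ACSL1 kept between -0.17 in thymus and 0.16 in adrenal tissue, and read 0.02 in adipose tissue and 0.06 in liver. In adipose tissue all 13 clones lay between -0.06 and 0.26, and in liver between -0.15 and 0.35.

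**Figure D4:**
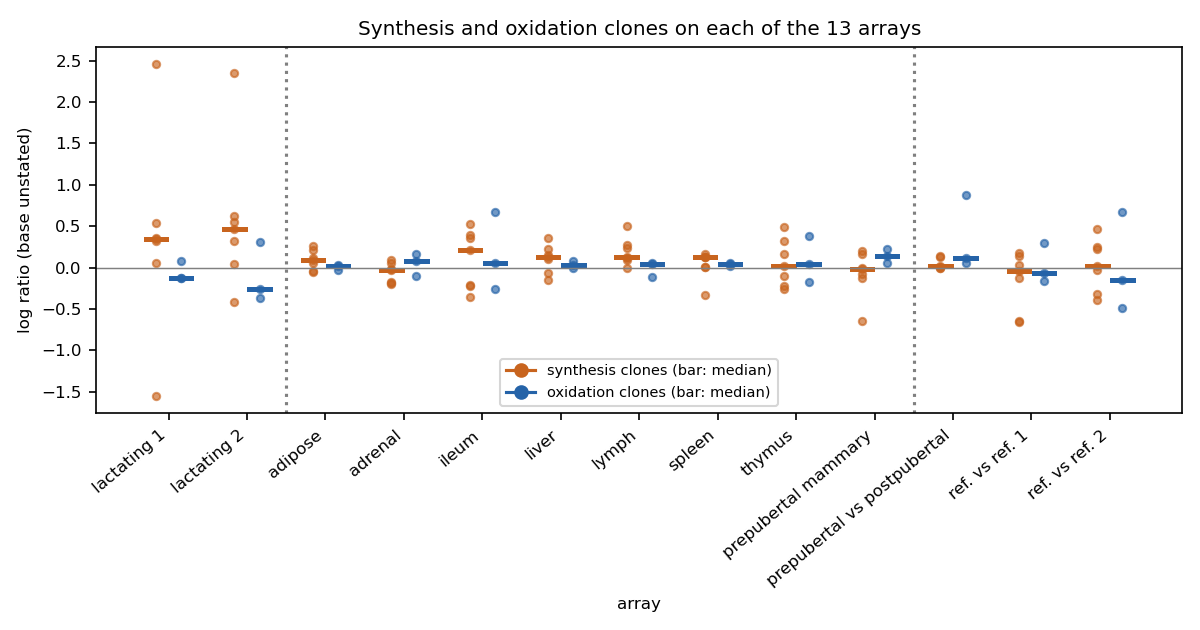
Clone means (points, log ratio of unstated base) and their medians (bars) for the 7 synthesis and 3 oxidation clones on each of the 13 arrays. The medians separate by 0.48 and 0.74 on the lactating arrays and by -0.16 to 0.16 on the tissue arrays. The arrays differ in spread and were not scaled here.

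Synthesis minus oxidation was small in every tissue. The difference of the medians was 0.16 in ileum, 0.10 in liver, 0.08 in lymph tissue, 0.08 in spleen, 0.07 in adipose tissue, -0.02 in thymus, -0.11 in adrenal tissue and -0.16 in prepubertal mammary gland. It was positive on 5 of 8 arrays. All 8 sizes were below the 0.17 of the second array of the reference against itself, but above the 0.018 of the first. Lactating gland, set against prepubertal gland, thus had a difference of 0.61 where prepubertal gland, set against the cell line, had -0.16, but these ratios have different denominators and their directions need not match, so the gap was not tested. The arrays also differed in spread. With arrays scaled to the same median absolute deviation, the lactating difference was 0.41. The tissue differences then ran from -0.18 in prepubertal mammary gland to 0.16 in liver. In prepubertal gland against the cell line the 3 oxidation clones lay at 0.06, 0.14 and 0.23, above 5 of the 7 synthesis clones.

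On the prepubertal against postpubertal array most members lay near 0. Which gland a positive value favours was not settled on that array. The 6 synthesis clones with a value ran from -0.01 to 0.15, with a median of 0.02 beside 0.12 for the oxidation clones. AACS had fewer than 2 spots with a value there. ACADS read 0.88 with an SD over spots of 0.76, and ACSL5 clone 1 read 0.33 with an SD of 0.54.

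For each clone that passed on the lactating arrays, the genes with the most similar order of the 8 tissues were looked up among 694 genes by Spearman rho. ACSS2 clone 1 was most like WTAP (0.98), PTPMT1 (0.93) and STC1 (0.93), of which 0 passed on the lactating arrays in limma. GPAM was most like C1R (0.95), SUOX (0.88) and AKTIP (0.79), and AKTIP passed at 0.54 (adjusted p = 0.0469, limma). ACSL5 clone 1 was most like ZC3H7A (0.98), CD36 (0.90, with a Pearson r of 0.96) and PPP1R1B (0.88). CD36 had 0.53 in ileum and 0.32 in prepubertal mammary gland, its highest tissues, as for ACSL5 clone 1. With 8 points that share 1 reference and as many genes to choose from, such likeness is a description only.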

How the data were processed

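The data were 13 hybridisations of 2 channels each to a bovine mammary cDNA array. The authors deposited 1 log ratio per spot. The deposited ratio has a base, dyes, background correction and normalization not given in the sources used here. Intensities were not used here, so the number of arrays limits the precision. The platform annotation gave 2538 spots 1 gene symbol, 30 several and 1320 none. The 10 members kept their symbols in RefSeq. Exact 0 was set to missing, each array's median was subtracted, and the spots of an accession (or of an unannotated run of 3) were averaged where at least 2 had values. Of 1234 features, the 1179 measured on 7 or more arrays were used. A two-sided limma 3.58.1 fit (lmFit, eBayes; R 4.3.3) compared the lactating mean with 0, with Benjamini-Hochberg adjustment over all features at 0.05. That fit had 1 residual and 8.45 prior degrees of freedom. The fit was also run on simulated data drawn from its own fitted spread, which cannot show whether that model suits the lactating arrays. Errors after ± are SDs over the 2 lactating arrays unless spots are named. Tissue arrays had no replicate and no test. Other steps used Python 3.11.15 with pandas 2.3.3, scipy 1.17.1 and numpy 2.4.6. Members and lists were chosen with earlier results of these data known. Named beyond the members were pathway genes that passed or were the highest or lowest of their list, and the 3 most alike genes per called clone. FABP5 and the marker genes were named after their values were seen.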

Additional observations from a re-analysis of the deposited data

How the results depend on the processing

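ACSS2 clone 1 kept its side and its call in every alternative fitted on clones, between 1.70 with arrays scaled to the same median absolute deviation (adjusted p = 0.0348) and 2.89 in contrast with the reference against itself, with p-values by limma. GPAM and ACSL5 clone 1 did not keep theirs. GPAM kept its call with at least 3 spots per feature (0.0326) and, as a gene, when genes were tested, and missed it elsewhere (0.0643 on the deposited values to 0.494 without array 2). The members called fell to 1 of 13 with exact 0 kept as a ratio, with arrays scaled, with the median of the spots, in contrast with the reference against itself, and with its arrays sharing the spread, and to 1 to 2 without 1 array. All features called were 136 in the main setting, 26 with exact 0 kept, 51 with arrays scaled, 20 in the contrast, 59 with the spread shared and 13 to 40 without 1 array. On the deposited values 187 were called, 48.1% of them on the casein side against 71.3% after centring, and SCD clone 1 passed at -0.85 (0.0244) while GPAM did not. Genes in place of clones called ACSS2, GPAM and AACS.

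Synthesis minus oxidation on the lactating arrays moved to 0.41 with arrays scaled and to 0.41 without ACAT1. In adipose tissue it was -0.0038 with the median of the spots and 0.13 with arrays scaled. With the median of the spots thymus also changed sign, at 0.08 in place of -0.02, and liver read 0.05 in place of 0.10. Values near 0 changed sign: ACLY was 0.012 with arrays scaled and -0.41 to 0.32 without 1 array, ACSL1 -0.069 on the deposited values, -0.0025 in the contrast and -0.040 to 0.098 without 1 array, and ACADS 0.13 in the contrast. SCD clone 1 was -1.55 to 0.048 without 1 array. The causes were not tested.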
